A study of Mus musculus with 4 samples.

Results

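Mouse CD4+ T cells without STAT5 were set against STAT5 wild-type cells after 72 h of culture under Th17 conditions with IL-2 added, which concerns 2 of the 4 arrays of the study. Each gene's level on the STAT5 wild-type array was subtracted from its level on the STAT5-deficient array. Of 18194 genes that a probe set names alone, 12440 were compared, namely those whose highest level on the 4 arrays passed 6.20, the median of all values. Naive cells (CD4+, CD44-, CD62L+) had been sorted from lymph nodes and spleen of mice (strain C57BL/6J) with the OT2 transgene, a T cell receptor specific for an ovalbumin peptide. The controls were stat5 fl/fl OT2, and the deficient cells were CD4-Cre stat5 fl/fl OT2, in which the Cd4 promoter drives the Cre recombinase and deletion takes place in developing T cells. All cultures received plate-bound anti-CD3 and anti-CD28, IL-6 (20 ng/ml), TGF-β (2 ng/ml) and anti-IL-4, and this pair also received IL-2 (100 IU/ml). The other pair, stat3 fl/fl OT2 with and without CD4-Cre, had an antibody against IL-2 (10 µg/ml) in place of IL-2 and is used here only as a reference. The controls carry no Cre, so Cre and the loss of STAT5 cannot be told apart, and the genotype label of the deficient sample carries Cre but ends in the words for wild type.

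STAT5A and STAT5B are closely related transcription factors that the IL-2 receptor activates through the kinases JAK1 and JAK3. Once phosphorylated they pair, enter the nucleus and bind DNA at short palindromes. In helper T cells they are known to sustain Foxp3, the factor that defines regulatory T cells, and survival genes such as Bcl2, and to oppose Bcl6, the factor of follicular helper cells. IL-2 is also known to restrain IL-17 production through STAT5.

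Every level is a deposited array value read as log2, so a difference of 1 is 2-fold. Each group was 1 array of 1 culture, so no difference has a replicate check or a test, and genes past 2-fold are described as higher or lower on the STAT5-deficient array. In all, 448 genes (3.6%) lay past 2-fold, 231 of them higher (1.86%) and 217 lower (1.74%). Counts within gene lists below are to be read beside these shares. The lists were chosen with earlier results of these data known, so their counts and medians are only descriptions. The median difference of all genes compared was 0.06, and 10494 genes (84.4%) lay within 0.5. Since this median was above 0, most genes lay above 0, and with array median centring it was 0.0. Counts of list members above or below 0 are to be read with this offset. Past 4-fold lay 35 higher and 41 lower genes. Weak signals made up many of the calls: 5.95% of genes in the lowest of 4 equal classes by mean level were past 2-fold, against 2.25% in the highest class. Of 6872 genes above 8.29, percentile 75 of all values, on both arrays, 130 (1.89%) lay past 2-fold. The control level lay under 6.20 for 100 of the higher genes and the deficient level for 78 of the lower ones, so their fold is uncertain in size. A gene that passed the filter through the STAT5 control alone could only be lower. One that passed through the STAT5-deficient array alone could only be higher. Where a called gene had several probe sets, they lay on the same side of 0 for 140 of 154 genes, and all were past 2-fold for 67. Rpl41, a ribosomal protein gene picked out after its values were seen, is an exception: its chosen probe set stood at 13.58 and 14.98, while another of them read -0.04 as a difference.

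**Figure D1:**
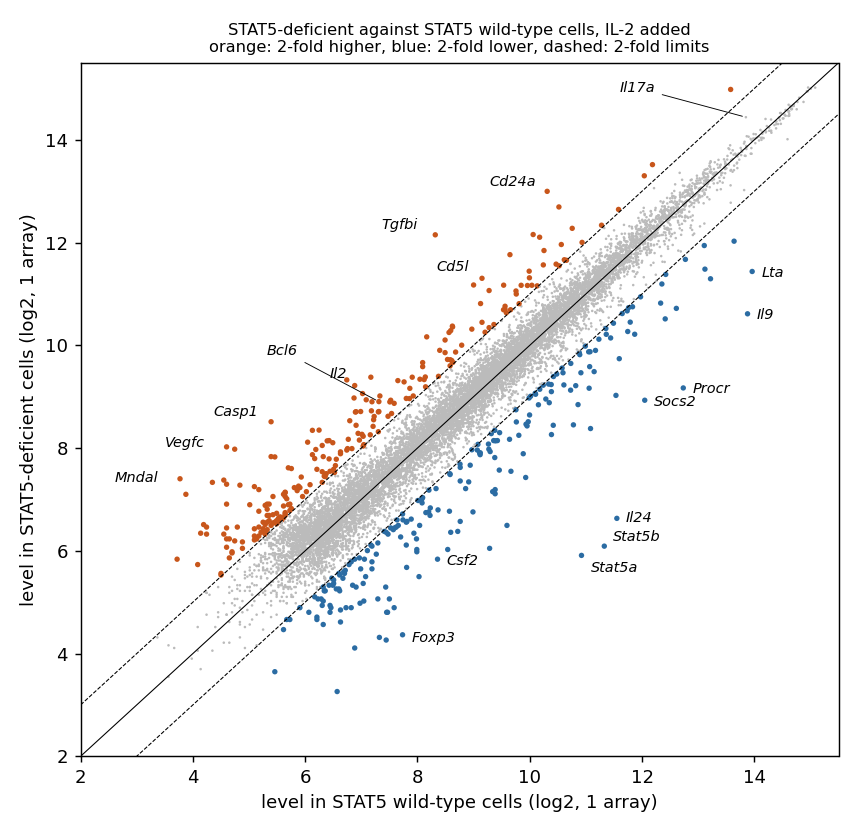
Level of each of the 12440 genes on the STAT5 wild-type array (horizontal, log2) against the STAT5-deficient array (vertical, log2), 1 point per gene. Orange points are the 231 genes 2-fold higher and blue points the 217 genes 2-fold lower. Stat5a, Stat5b and Il24 lie farthest under the diagonal, while Il17a lies inside the dashed 2-fold limits.

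The cultures were CD4 T cells by their markers. All 10 measured CD4 T cell markers exceeded 6.20 on both arrays and 0 lay past 2-fold. Cd4 stood at 11.00 in control cells and 10.88 without STAT5, and Cd3e at 11.84 and 12.09. The farthest marker was Cd2, an adhesion receptor, at 13.03 and 12.32. Markers of other cells were weak: of 8 myeloid markers 2 exceeded 6.20 on each array, of 6 B cell markers 2 and 4, and of 5 NK cell markers 0 and 0. Their summed linear levels were 470 and 525, 357 and 440, and 122 and 126, against 50375 and 52883 for the CD4 T cell markers. Cd8a stood at 6.21 and 6.23. None of these markers differed by 2-fold. In bulk RNA, fewer cells of a type and less RNA per cell cannot be told apart.

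The targeted genes were the 2 farthest below their control. Stat5b stood at 11.39 and 10.97 on the STAT3 wild-type and STAT3-deficient arrays, at 11.33 in the STAT5 control and at 6.09 without STAT5, a difference of -5.24. Its other probe set read 9.84 and 6.87. Stat5a stood at 10.73, 10.59, 10.92 and 5.91 on the same 4 arrays, and its other probe set at 10.73 and 4.76 in the STAT5 pair. On the STAT5-deficient array both genes were thus low, with Stat5a and the main Stat5b probe set under 6.20, while the other 3 arrays were alike. The labels do not say which part of the locus was deleted, and probe sets beyond it would be no check. The other JAK and STAT genes were within 2-fold: Jak1 at 11.75 and 11.84, Jak3 at 11.14 and 11.11, Stat6 at 11.51 and 11.75, and Stat3 at 12.33 and 12.80. A weaker Stat3 probe set read 7.44 and 6.25, a difference of -1.19, while its remaining ones differed by 0.21 and 0.38. Of 17 measured neighbours of the Stat5 locus, 1 passed 2-fold, Cavin1, a caveolar coat gene, which stood at 6.07 and 4.80. That call was lost over its probe sets (-0.38) and without probe sets that can match several transcripts (-0.35).

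The IL-2 receptor chains measured were within 2-fold. Il2ra, the high-affinity chain that IL-2 signalling is known to induce, stood at 12.81 and 12.50 without STAT5, and its second probe set at 12.89 and 12.36. Il2rb, the signalling chain, stood at 12.29 and 12.52. Il7r, the IL-7 receptor that IL-2 is known to repress, was higher, at 9.96 in control cells and 11.16 without STAT5, and was the 1 gene of 7 cytokine receptors of this family past 2-fold. Il4ra, the IL-4 receptor chain, stood at 11.29 and 10.67.

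Feedback inhibitors differed in how far they lay from their control. Socs2, which dampens cytokine receptor signalling, stood at 12.05 in control cells and 8.93 without STAT5, and its 5 probe sets past the filter differed by -3.12 to -0.98. It was the only 1 of 17 inhibitors of cytokine signalling past 2-fold. Cish, a classical STAT5 target, stood at 12.77 and 12.42, Socs1 at 9.63 and 9.09, and Socs3, the inhibitor of IL-6 signalling, at 11.62 and 11.17. The tyrosine phosphatase genes Ptpn2, Ptpn6 and Ptpn11 differed by -0.01, 0.01 and 0.22.

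A list of 30 genes holds known targets that IL-2 raises through STAT5, and 29 of them passed the filter. On the STAT5-deficient array 7 of them were lower, 2 were higher and 24 lay below 0, and their median difference was -0.45 against 0.06 for all genes. The list was chosen with earlier results of these data known, so its counts and median are only a description. Foxp3 stood at 7.73 in control cells and 4.36 without STAT5 (10.3-fold lower), and at 3.94 and 3.32 on the STAT3 pair, so the STAT5 control was the only array above 6.20. Foxp3 thus passed the filter through that array alone and could only be lower, in any list that holds it. Lta, which encodes lymphotoxin alpha, stood at 13.96 and 11.44. Bcl2, an inhibitor of apoptosis, stood at 10.82 and 9.21, and its 5 probe sets differed by -2.03 to -0.82. The other lower members were the regulatory T cell factor gene Ikzf4 (9.76 and 8.51), the MAP kinase phosphatase gene Dusp5 (9.39 and 8.14) and the survival kinase gene Pim2 (10.58 and 9.56), besides Socs2. Myc, the growth regulator, stood at 12.03 and 11.33, and Pim1 at 11.38 and 10.75, short of 2-fold. The higher members were Gzmb, the granule protease granzyme B, at 7.76 and 9.29, and Dusp6, an ERK phosphatase, at 9.75 and 11.06. The remaining 20 members, among them the receptor chains and Cish, were within 2-fold.

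Genes known to be repressed by IL-2 and STAT5 were fewer. Of 8 measured, 2 were higher (Il7r and Bcl6), 1 was lower (Ccr7), and the median was 0.43. Bcl6 stood at 7.31 in the STAT5 control and 8.90 without STAT5. Its second probe set stood at 5.70 and 7.24, on the same side. Ccr7, a lymph node homing receptor, stood at 11.65 and 10.62, opposite to the direction named by the list. Il17a, also on this list, stood at 13.85 and 14.44.

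STAT factors bind the palindrome TTCNNNGAA, which reads the same on both strands. RefSeq promoters of GRCm38.p6 held 250 bases before a start site for 10042 of the 12440 genes, and 720 of these genes (7.17%) had the motif in at least 1 of their windows. Among lower genes it was 23 of 169 with a window (13.6%), among higher genes 9 of 182 (4.95%), and in all 32851 RefSeq windows the share was 7.02%. Genes with several start sites have more windows to hold a match. Among genes with a single window the shares were 11 of 130 lower genes (8.46%), 7 of 139 higher genes (5.04%) and 468 of 8022 in all (5.83%), so the lower genes stood closer to the rest. With 4 free bases in place of 3 between the same letters the shares were 5.92%, 7.14% and 5.59%. Both of these counts were added after the data were seen, and a match is a description of the letters, not a site. Some matches in genes lower without STAT5 are shown because they include Foxp3 and the lymphotoxin genes, with the motif in capitals and up to 20 bases on each side, in the direction of the gene.
Foxp3 (chrX:7580324-7580372, plus strand, motif centre 135 bases before the start): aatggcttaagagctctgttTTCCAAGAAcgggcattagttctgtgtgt
Lta (chr17:35205475-35205523, minus strand, 148 bases before): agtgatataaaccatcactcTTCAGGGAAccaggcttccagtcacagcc
Lta, second match in the same window (chr17:35205352-35205387, minus strand, 12 bases before): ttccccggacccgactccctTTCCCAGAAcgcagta
Ltb (chr17:35194315-35194363, plus strand, 168 bases before): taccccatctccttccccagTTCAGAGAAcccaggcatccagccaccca
Batf3 (chr1:191098164-191098203, plus strand, 235 bases before): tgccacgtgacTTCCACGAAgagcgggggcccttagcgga
Sgk1 (chr10:21881941-21881989, plus strand, 219 bases before): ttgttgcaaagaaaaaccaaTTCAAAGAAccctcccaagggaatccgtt
Of the genes higher without STAT5, some matches in Bcl6 and the match in Il7r are shown because both genes belong to the repressed list. The second Bcl6 window below also holds TTCCTGGAA and TTCTGTGAA, at 164 and 118 bases before the start, which are not shown with their flanks.
Bcl6 (chr16:23988942-23988990, minus strand, 114 bases before): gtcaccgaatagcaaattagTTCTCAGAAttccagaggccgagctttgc
Bcl6, another start site (chr16:23981343-23981391, minus strand, 84 bases before): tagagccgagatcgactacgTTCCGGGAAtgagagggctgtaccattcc
Il7r (chr15:9529990-9530038, minus strand, 138 bases before): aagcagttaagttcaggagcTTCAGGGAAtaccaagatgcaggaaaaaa
No match lay in the windows of Stat5a, Stat5b, Il2, Il2ra, Cish or Il9, which says only that these letters are not in those bases.

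Secreted factors included some of the farthest genes on both sides. Of 24 cytokine genes past the filter, 7 were lower, 4 higher and the median was -0.46. Il24, a member of the IL-10 family, stood at 8.61 and 5.30 on the STAT3 wild-type and STAT3-deficient arrays, at 11.55 in the STAT5 control and at 6.63 without STAT5. Il9, a mast cell growth factor, stood at 8.87, 8.89, 13.88 and 10.61 on the same arrays. Csf2, which encodes GM-CSF, stood at 6.29, 10.45, 8.36 and 5.84. For Il24 and Il9 the STAT5 control was the high array of the 4, whereas for Csf2 it was the STAT3-deficient array. Il10 stood at 10.39 and 8.26 in the STAT5 pair, Ltb, the partner chain of lymphotoxin, at 12.41 and 10.51, and Lif, an IL-6 family cytokine, at 10.99 and 9.98 (-0.94 over its probe sets). Ltb was at 12.23 on each of the other arrays, so only the STAT5-deficient array was low. Tnf, the third member of that gene cluster, stood at 8.88 and 8.29, within 2-fold.

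On the other side, Il2, the cytokine upstream of STAT5, stood at 6.66 and 6.99 on the STAT3 pair, 6.88 in the STAT5 control and 9.22 without STAT5, so that 3 arrays were alike and the deficient array was 5.05-fold above its control. Vegfc, a growth factor of lymphatic vessels, stood at 5.06, 3.72, 4.60 and 8.02. Its 3 probe sets differed by 2.23 to 3.43. Vegfc passed the filter through the STAT5-deficient array alone, so it could only be higher. Penk, the enkephalin precursor, stood at 8.59 and 10.29, and Csf1, a macrophage growth factor, at 6.94 and 8.29. Il17a (0.59), Il21 (-0.60) and Tgfb1 (0.15) lay within 2-fold, and the control and deficient levels of Ifng, Il3 and Il13 were all under 6.20. None of 11 chemokine genes passed 2-fold, and Ccl3, at 6.84 and 7.76, was the farthest of them above its control.

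**Figure D2:**
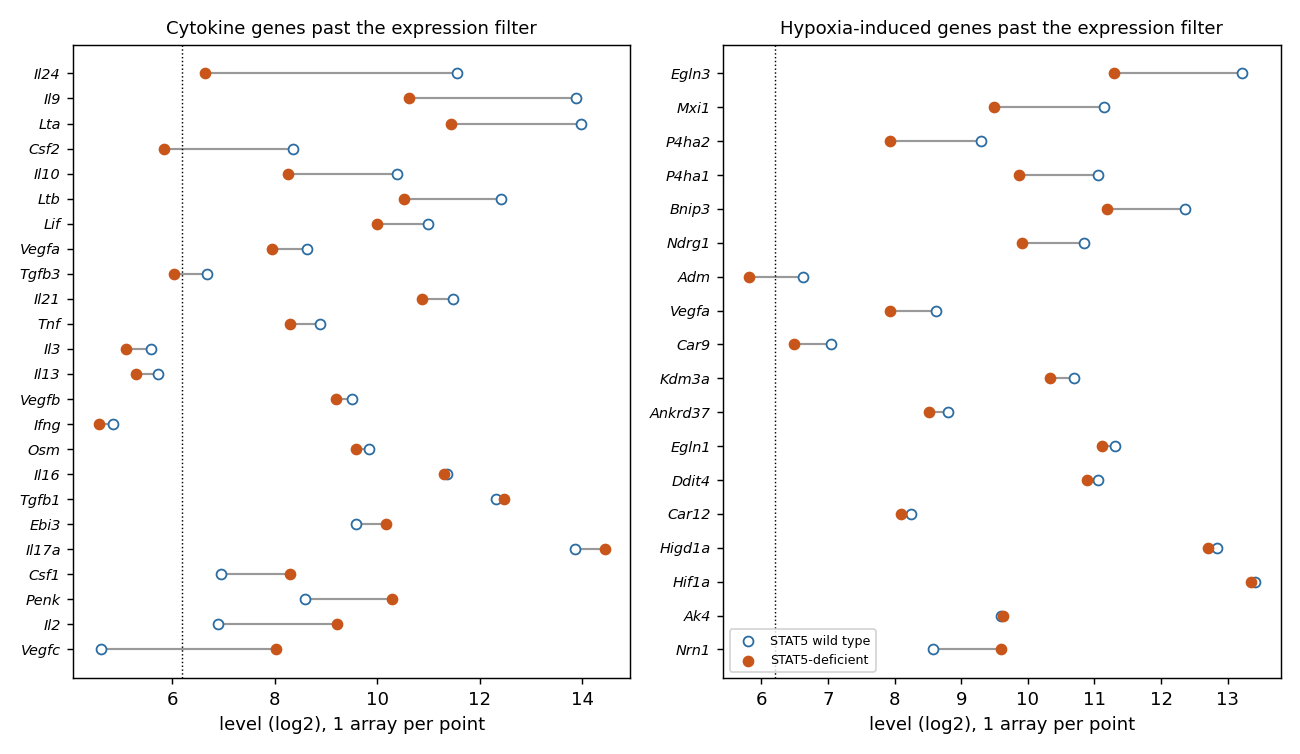
Levels (log2, 1 array per point) of the 24 cytokine genes and the 18 hypoxia-induced genes past the expression filter, with open circles for STAT5 wild-type and filled circles for STAT5-deficient cells. The dotted line marks 6.20. Of the cytokine genes 17 lie below their control, led by Il24 and Il9, and of the hypoxia-induced genes 16 do.

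Among TNF superfamily ligands, 3 of 13 were higher and 2 lower. Cd70, the ligand of CD27, stood at 5.39 in control cells and 7.83 without STAT5, Tnfsf11, which encodes RANK ligand, at 6.99 and 8.71, and Tnfsf4, the OX40 ligand, at 7.30 and 8.32 (0.95 with arrays centred). The lower members were Lta and Ltb. Of 19 receptors of the superfamily 2 were higher: Tnfrsf8, which encodes CD30, at 5.32 and 6.91, and Tnfrsf13c, the BAFF receptor, at 5.52 and 6.57 (0.99 with arrays centred). The other 8 ligands were within 2-fold.

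The regulatory T cell list held some of the farthest genes. Of 20 measured, 5 were lower, 1 was higher (Gzmb) and 15 lay below 0, with a median of -0.25. Besides Foxp3, Il10 and Ikzf4, the lower members were Izumo1r, the folate receptor 4 of these cells (10.78 and 8.45), and Entpd1, the ectonucleotidase CD39 (6.67 and 5.46). Gpr83, an orphan receptor, stood at 7.59 and 6.62, just inside 2-fold and past it with arrays centred (-1.04), and -1.86 apart on another probe set. Ctla4, an inhibitory receptor, stood at 12.95 and 12.93, Nt5e, which encodes CD73, at 11.12 and 11.10, and Nrp1 at 8.22 and 8.23, while Tnfrsf4, the OX40 receptor, differed by -0.04. Tnfrsf18, which encodes GITR, and Tnfrsf9, which encodes 4-1BB, differed by -0.60 and -0.51, within 2-fold.

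Th17 genes lay on both sides. Of 18 measured, 5 were higher, 1 was lower and the median was 0.27. Cd5l, a regulator of lipid metabolism in Th17 cells, stood at 7.95 and 8.31 on the STAT3 pair, 9.15 in the STAT5 control and 11.30 without STAT5. Tmem176a and Tmem176b, paired membrane protein genes, stood at 12.19 and 13.52 and at 12.04 and 13.30. Il1r1, the IL-1 receptor, stood at 8.62 and 10.37, and Batf, an AP-1 factor required for these cells, at 10.65 and 11.66, which came to 0.94 with arrays centred. Basp1 was the lower member, at 12.61 and 10.72. The factor genes Ahr (11.90 and 12.30), Rora (11.41 and 12.13) and Maf (11.94 and 11.52) and the homing receptor gene Ccr6 (10.96 and 11.75) were within 2-fold. With a gene's probe sets averaged, Il1r1 came to 0.92 and Il21 and Irf4 to -1.03 and -1.10, which left 4 higher and 3 lower genes and a median of 0.13. The average for Il1r1 takes in signal under the filter, since only 1 of its probe sets, at 1.75, passed it.

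The main factor genes of the Th1, Th2 and follicular helper fates lay above their control, whereas Foxp3 lay below it. Tbx21, which encodes the Th1 factor T-bet, stood at 6.13 in control cells and 7.87 without STAT5, Gata3, the Th2 factor, at 6.30 and 8.05, and Bcl6, the follicular helper factor, at 7.31 and 8.90. The controls of Tbx21 and Gata3 were at the edge of the expression filter. Of 15 Th1 genes 4 were higher, 0 were lower and the median was 0.46: besides Tbx21 these were the homing receptors Cxcr6 (9.28 and 11.07) and Cxcr3 (8.54 and 9.72) and the IL-18 receptor chain Il18rap (7.52 and 8.93). Ifng, the Th1 cytokine, stood at 4.84 and 4.56. Of 16 follicular helper genes 5 were higher, 0 were lower and the median was 0.12. Tox2, a chromatin factor of these cells, stood at 9.65 and 11.77, Pou2af1, a coactivator, at 9.54 and 11.17, and Pdcd1, which encodes PD-1, at 9.99 and 11.31. Tox, at 8.14 and 9.19, came to 0.99 with arrays centred and 0.87 over its probe sets. Cxcr5, the follicle homing receptor, stood at 7.82 and 8.64, within 2-fold. Of 16 Th2 and Th9 genes Gata3 alone was higher, while Il24, Il9 and Il10 were lower and the median was -0.46.

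Activation factors of the AP-1 and NR4A families differed by member. Fos stood at 8.63 in control cells and 10.36 without STAT5, Fosb at 4.55 and 6.32, and Nr4a2, an orphan nuclear receptor, at 9.12 and 10.81. The remaining arrays read 7.69 and 7.99 for Fos and 8.51 and 9.03 for Nr4a2, so the STAT5-deficient array was high among the 4. Batf3, a partner of JUN proteins, stood at 11.08 and 8.38, and Atf3, a stress-induced factor, at 9.38 and 7.19. Egr1, Egr2 and Egr3, early genes of T cell receptor signalling, differed by -0.74, -0.02 and -0.22, and Nr4a1 by 0.61. In these families 3 of 16 AP-1 genes were higher and 2 lower, and 3 of 18 EGR, NR4A and NFAT activation genes were higher and 1 lower, the last being Ier3 at 9.64 and 8.17. Over all genes 1.86% were higher and 1.74% lower. Fosb, at 4.80 and 4.76 on the STAT3 pair, passed the filter through the STAT5-deficient array alone, so it could only be higher.

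Of 15 NF-κB factors and inhibitors, 13 lay above 0 and 2 passed 2-fold, with a median of 0.41 against 0.06 for all genes. Rel, the c-Rel subunit of lymphocytes, stood at 7.92 and 9.01, and Tnfaip3, the inhibitor A20, at 10.62 and 11.67 (0.99 with arrays centred). The inhibitor genes Nfkbia, Nfkbie and Nfkbid stood at 12.67 and 13.36, 8.54 and 9.38, and 9.95 and 10.59. Klf4, a factor of quiescent T cells, stood at 7.65 and 9.31 and was the 1 gene of 13 Kruppel-like factors past 2-fold.

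The farthest genes came from many functions. Procr, the endothelial protein C receptor, stood at 12.73 in control cells and 9.17 without STAT5, F3, which encodes tissue factor, at 6.57 and 3.26, and the complement protease gene C1s1 at 7.44 and 4.26. These were the 3 lower genes of 13 in coagulation and complement, and 0 were higher, beside 1.74% lower and 1.86% higher over all genes. For F3 and C1s1 the STAT5 control was the only array above 6.20, since the STAT3 pair read 3.54 and 3.62 and 4.15 and 4.15. Both thus passed the filter through that array alone and could only be lower. The list was also chosen with earlier results of these data known, so its count is only a description. Enah, an actin-binding protein, stood at 9.29 and 6.05, Anxa3 at 9.59 and 6.49, Cd36, a fatty acid receptor, at 7.32 and 4.31, and Acvrl1, a receptor of the TGF-β family, at 7.45 and 4.80. Cd36, at 3.54 and 4.47 on the STAT3 pair, also passed the filter through the STAT5 control alone and could only be lower. Ncf1, a subunit of the phagocyte oxidase, stood at 8.03 and 5.50. Sgk1, a salt-sensing kinase, stood at 11.54 and 9.03 and Lbp at 10.86 and 8.85, both with strong signals on either array. The other Lbp probe set past the filter differed by only -0.37, within 2-fold.

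Among the farthest genes above the control, Tgfbi, a matrix protein, stood at 11.03 and 5.47 on the STAT3 pair, 8.32 in the STAT5 control and 12.15 without STAT5, so it was 14.3-fold higher. Its 4 probe sets differed by 0.91 to 4.18. Cd24a, a surface glycoprotein, stood at 12.04 and 9.57 on the STAT3 pair and 10.31 in the STAT5 control, and was 2.69 above that control without STAT5. For both, the STAT3-deficient array was the low array and the STAT5-deficient array the high one. Casp1, the inflammasome protease, stood at 5.39 and 8.51 and Casp4, its relative, at 8.68 and 9.87, while Naip2, an inflammasome sensor, was lower at 6.36 and 5.22. Mndal, of the interferon-inducible p200 family, stood at 3.77 and 7.40, P2ry6, a receptor for UDP, at 3.87 and 7.10, and Serpinb9, an inhibitor of granzyme B, at 4.60 and 7.30. The controls of these 3 were under 6.20. P2ry6, at 4.66 and 4.31 on the STAT3 pair, passed the filter through the STAT5-deficient array alone and could only be higher. Interferon-stimulated genes did not share a direction, with 2 of 32 higher, 2 lower, 16 above 0, 16 below 0 and a median of -0.01. The higher ones were the guanylate-binding protein genes Gbp6 (4.60 and 6.91) and Gbp3 (5.64 and 7.13). Their relatives Gbp2 and Gbp7 differed by 0.91 and 0.87, and Gbp7 passed 2-fold over its probe sets (1.49). The lower ones were Iigp1 (7.27 and 5.93) and Irf8 (11.49 and 10.43), the latter just short of 2-fold over its probe sets.

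Adhesion and shape genes followed. Vcam1, a ligand of integrins, stood at 5.46 and 7.83, and Cdh17, a cadherin, at 6.79 and 8.53. Emp1, a membrane protein, stood at 11.75 and 10.27 (-0.85 over its probe sets), the 1 lower gene of 20 in the adhesion list beside 4 higher ones. Dclk1, a microtubule-associated kinase, stood at 6.74 and 9.33 with 7 probe sets between 1.57 and 3.06, and Evl, a relative of Enah, at 10.25 and 11.85. Enah and Evl, which both promote actin assembly, thus lay on opposite sides. None of 13 integrin genes passed 2-fold.

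**Figure D3:**
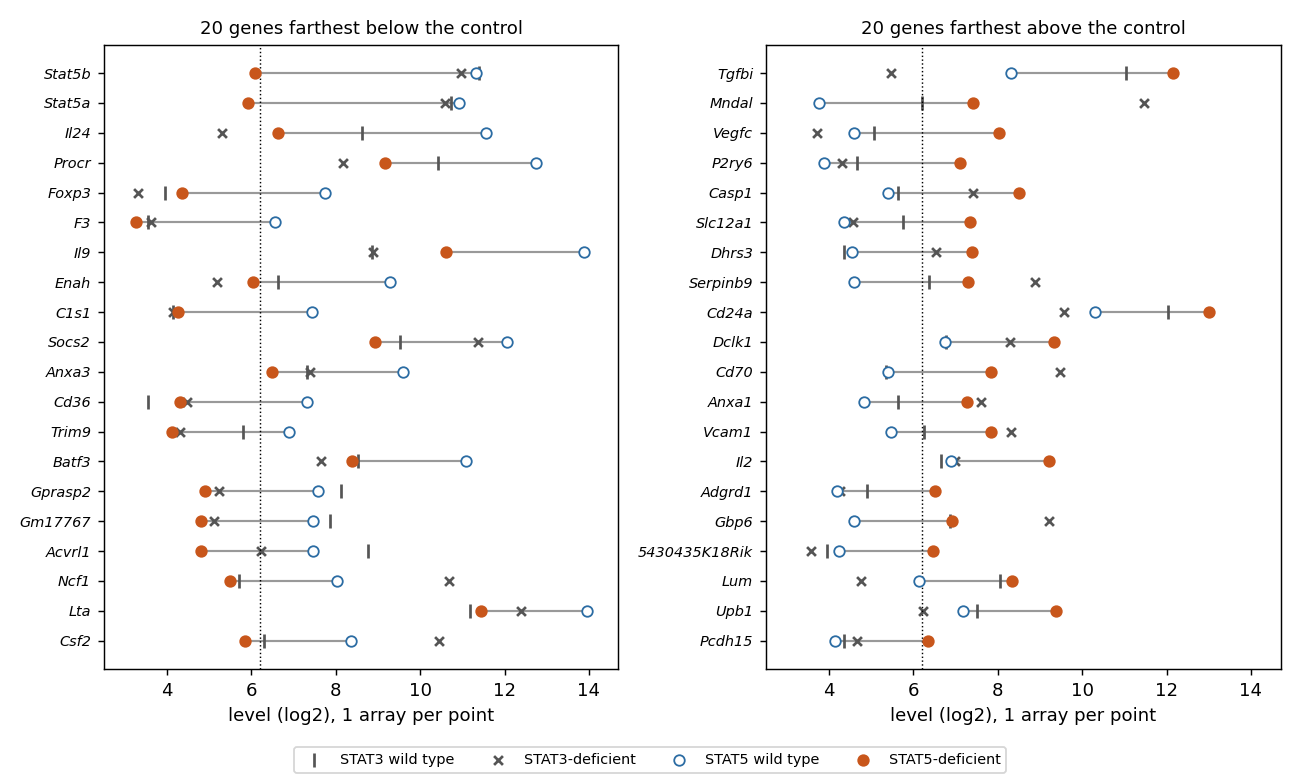
The 20 genes farthest below (left) and above (right) their control, with the level (log2) on each of the 4 arrays, 1 point per array, and the dotted line at 6.20. A grey bar joins the STAT5 wild-type level (open circle) to the STAT5-deficient level (filled circle). For Foxp3, F3, C1s1, Cd36 and Trim9 only the open circle lies to the right of the dotted line. For Vegfc, P2ry6, Slc12a1, Adgrd1, 5430435K18Rik and Pcdh15 only the filled circle does. These genes passed the filter through that array alone and could only lie on the side shown.

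Of 18 measured genes that hypoxia is known to induce, 5 were lower, 1 was higher and 12 were within 2-fold. Below 0 lay 16 of them, and the median was -0.45 against 0.06 for all genes. In the STAT3 pair the median of this list was -0.61, against -0.20 for all genes. Egln3, a prolyl hydroxylase that marks HIF for degradation, stood at 13.22 in control cells and 11.30 without STAT5. Mxi1, an antagonist of MYC, stood at 11.15 and 9.49, the collagen hydroxylase genes P4ha2 and P4ha1 at 9.29 and 7.93 and at 11.05 and 9.87, and Bnip3, a mitophagy receptor, at 12.35 and 11.19. Ndrg1 stood at 10.84 and 9.92 and Vegfa at 8.62 and 7.94, short of 2-fold. Hif1a itself was level, at 13.41 and 13.35. Nrn1 was the higher member, at 8.58 and 9.60, which came to 0.96 with arrays centred. Ero1a, an oxidase of the endoplasmic reticulum that the list held under an older symbol and that was read after its values were seen, stood at 12.33 and 10.82.

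Of 19 measured glycolysis genes, 14 lay below 0, 2 were lower, 0 higher and the median was -0.18. Slc2a3, which encodes the glucose transporter GLUT3, stood at 12.97 and 12.37 on the STAT3 pair, 11.87 in the STAT5 control and 10.22 without STAT5, and its 4 probe sets differed by -2.14 to -1.42. Aldoc, an aldolase, stood at 10.73 and 9.13 but lost its call over its probe sets (-0.89). That average takes in signal under the filter, since only 1 Aldoc probe set, at -1.60, passed it. Slc2a1, the GLUT1 gene, stood at 12.34 and 11.74, and Hk2, Pkm and Ldha, enzymes of the pathway, differed by -0.20, 0.08 and 0.10.

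All 27 S phase genes and all 27 mitosis genes were within 2-fold, with medians of 0.23 and 0.24, and 25 of each lay above 0. The median of all genes was 0.06. Mki67, a proliferation marker, stood at 12.59 and 12.80, and Plk1, a mitotic kinase, at 10.72 and 11.16. Ribosome biogenesis genes (22 measured, median 0.01) and respiratory chain genes (26 measured, median 0.08) had 0 members past 2-fold. Among cell cycle regulators, the inhibitor genes Cdkn1a and Cdkn1b stood at 12.40 and 11.62 and at 10.59 and 9.95, and Cdkn2c at 9.22 and 10.02.

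Chaperones of the endoplasmic reticulum lay slightly above their control, with 15 of 18 above 0, 0 past 2-fold and a median of 0.35. The median over all genes was 0.06. Herpud1 stood at 10.90 and 11.82, Dnajc3 at 10.25 and 10.98, and Hspa5, which encodes BiP, at 13.22 and 13.57. Of 27 amino acid response and stress genes 3 were lower, Atf3, Cebpb (10.24 and 9.22, or -0.95 over its probe sets) and Vldlr (7.62 and 6.46), and 0 higher. Among 27 genes of cholesterol and fatty acid synthesis, Abcg1, a sterol exporter, stood at 9.12 and 7.87 (-0.95 over its probe sets).

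**Figure D4:**
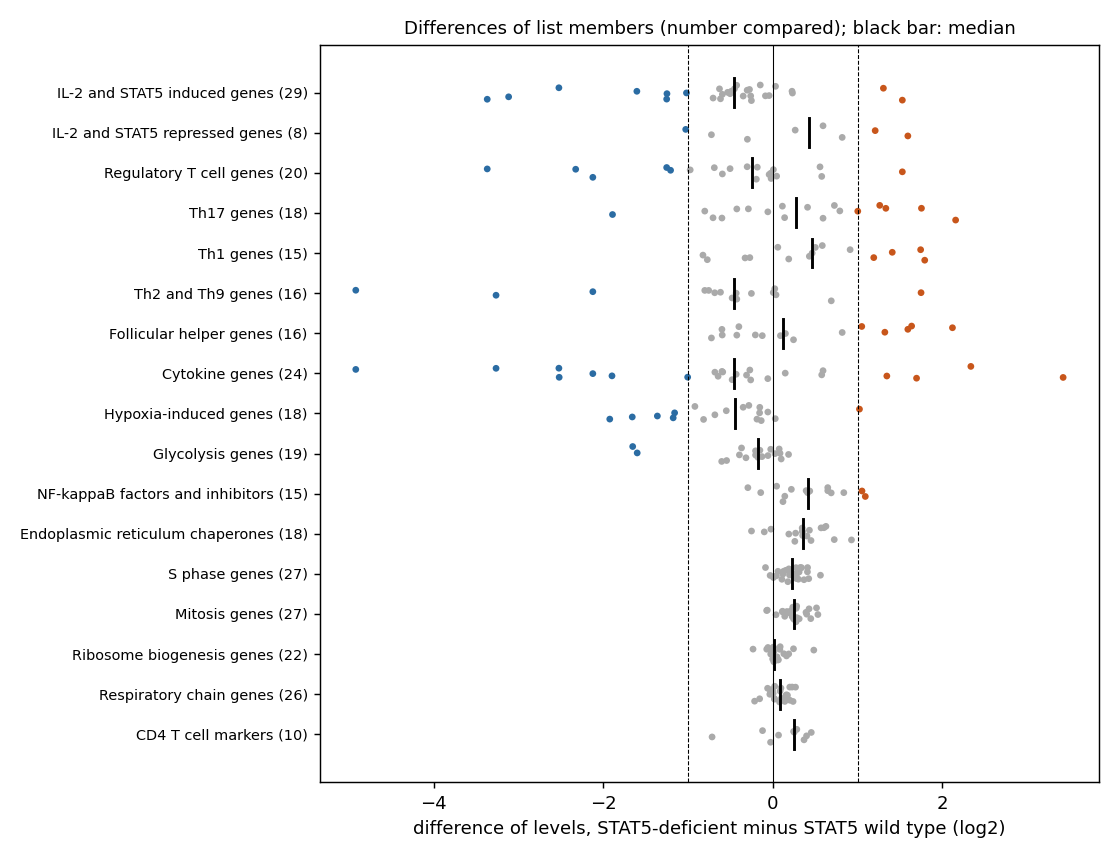
Differences (log2, STAT5-deficient minus STAT5 wild type) of the members of 17 gene lists, 1 point per gene, with the number compared in parentheses, the list's median as a black bar and 2-fold limits as dashed lines. Vertical spread within a list carries no value. IL-2 and STAT5 induced, regulatory T cell, cytokine and hypoxia-induced genes have medians from -0.46 to -0.25, while S phase, mitosis, ribosome biogenesis and respiratory chain genes lie within the limits.

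Receptors of inflammatory cytokines and genes of cell death differed by family. Of 11 receptors of the IL-6 and IL-12 families 9 lay below 0 and 0 passed 2-fold, with the IL-6 receptor gene Il6ra at 8.63 and 7.91 and the shared chain Il12rb1 at 10.44 and 9.74. Il6st, the signalling chain gp130, stood at 9.11 and 9.37. Of 12 genes of the IL-1 and IL-18 receptor family 9 lay above 0, and Il1r1 and Il18rap were the 2 higher ones. In the BCL2 family Bcl2 was the 1 lower gene of 14 and 0 were higher. The pore-forming Bak1 stood at 9.12 and 10.09 (1.04 over its probe sets), the survival gene Mcl1 at 12.28 and 12.19, and the death inducer Bcl2l11, which encodes BIM, at 7.91 and 7.38. Of 27 genes of T cell receptor signalling, the kinase gene Txk (8.58 and 9.72) was higher and Malt1, a protease of the NF-κB branch (11.97 and 10.94, or -0.73 over its probe sets), lower. Among 21 costimulatory and coinhibitory receptors, Cd96 (8.14 and 9.38) joined Pdcd1 on the high side.

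Migration, cytotoxic and naive cell genes also held members past 2-fold. Gpr183, the oxysterol receptor that positions cells in lymphoid tissue, stood at 8.16 and 10.17, and Ltb4r1, a leukotriene receptor, at 10.38 and 9.24, so that 3 of 18 homing receptors were higher and 2 lower. Of 15 cytotoxic genes Serpinb9, Gzmb and Nkg7, a granule protein (6.04 and 8.11), were higher, and Klrd1, which encodes CD94, was lower (9.38 and 7.81). Of 13 naive and memory genes 4 were lower: Igfbp4 (13.12 and 11.48), Dgka, a lipid kinase that limits T cell receptor signals (11.83 and 10.75), Ets1 (12.42 and 11.38, or -0.74 over its probe sets) and Ccr7. Cd86, a costimulatory ligand, stood at 7.04 and 5.02, and Id1, a target of BMP signals, at 8.57 and 6.77. The retinoid genes Dhrs3, a retinal reductase, and Crabp2, a retinoic acid carrier, stood at 4.55 and 7.38 and at 9.20 and 10.26, the 2 higher genes of 13. Crabp2 came to 0.99 with arrays centred.

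Setting the STAT5 pair beside the STAT3 pair showed which called genes were also past 2-fold there. These pairs share no array but differ in IL-2, so the values are side by side only. The STAT3 pair had 1254 genes past 2-fold (10.1%), with 354 on the high side (2.85%) and 900 on the low side (7.23%). Of the 217 genes lower without STAT5, 68 (31.3%) were lower without STAT3 too, 7.56% of that list, among them Il24, Procr, Il10 and Sgk1, while 22 (10.1%) were higher there, such as Csf2 and Ncf1. Of the 231 genes higher without STAT5, 47 (20.3%) were higher in both pairs, 13.3% of the STAT3 list, including Gata3, Tbx21, Cd70 and Nkg7. Another 69 (29.9%) were lower without STAT3, 7.67% of that list, among them Tgfbi, Cd24a, Cxcr6, Pltp and Mt2. The remaining 115 higher (49.8%) and 127 lower genes (58.5%) were within 2-fold in the STAT3 pair. The STAT5-deficient array stood 2-fold above all 3 other arrays for 46 genes (0.37%) and 2-fold below them for 35 (0.281%). Besides Stat5a and Stat5b, the lowest of these were Selenbp1 (7.17 and 7.48 on the STAT3 pair, 6.63 in the STAT5 control and 4.61 without STAT5), Cd86 and Tlr1. The highest were Vegfc, P2ry6 and Il2. Vegfc and P2ry6 passed the filter through the STAT5-deficient array alone and could only be higher.

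The 2-fold limit parts genes with near-equal differences. Just inside it lay Gnptab at 9.81 and 10.81 and Acss2 at 8.97 and 7.97. Just outside lay Tnfrsf21 at 7.67 and 8.66 and Scd1, a fatty acid desaturase, at 12.26 and 11.26. With arrays centred Gnptab (0.94) and Scd1 (-1.06) changed sides. At the expression filter, Cracr2b had a highest level of 6.21 and was kept, while Zfp109 had a highest level of 6.20 and was left out.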

How the data were processed

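Biotin-labelled RNA of 4 cultures was measured on Affymetrix Mouse Genome arrays, 1 array per group. The deposited values per probe set, made by the authors with Affymetrix Power Tools per the submitters' processing notes (version not given in the sources used here), ran from 2.48 to 15.09 and were read as log2. The base of the logarithm, background correction and normalization are likewise not given, and another base would alter every fold. Groups came from the sample titles.

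Of 45101 probe sets, 34958 name 1 gene, 932 several and 9211 none in the platform annotation, and only the first kind was used. RefSeq (GRCm38.p6) matched 99.1% of symbols by Entrez identifier. A gene took the probe set with the highest mean over the 4 arrays and was kept where its highest level exceeded percentile 50 of all values. Differences were computed in Python 3.11.15 with pandas 2.3.3 and tested on simulated data. With 1 array a side no test was possible. Signal over background is known only through the level, since no detection call was used.

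Genes were named by rule: key STAT5 and helper T cell genes, the 20 farthest on each side, the 10 farthest with both levels above percentile 75 (8.29), the 5 farthest beyond the 3 other arrays, list members past 2-fold or farthest, defining list members, and those at the limits. The 20 farthest were taken among genes whose probe sets past the filter all lay on the same side of 0. The members and lists were chosen with earlier results of these data known. Alternatives were other probe-set summaries, filters, array centring (median, or loess with span 0.4) and thresholds. A value given over a gene's probe sets averages all of them, also those under the filter. Promoters were searched in RefSeq windows of 250 bases before each start.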

Additional observations from a re-analysis of the deposited data

How the results depend on the processing

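No paired analysis was possible because each group has 1 array. The count of higher genes was 231 as reported, 383 with no filter, 126 with the filter at percentile 75, 131 with both arrays above the filter, 800 at 1.5-fold, 73 at 3-fold and 46 beyond all 3 other arrays. The count of lower genes was 217 as reported, 128 with the filter at percentile 75, 139 with both arrays above it, 644 at 1.5-fold, 70 at 3-fold and 35 beyond the other arrays. The share of genes past the limit was 11.6% at 1.5-fold, 1.15% at 3-fold and 0.651% beyond the other arrays. Lower genes made up 48.4% of calls as deposited, 56.2% with array median centring (198 higher, 254 lower) and 57.4% after loess (190 and 256). The share of lower genes with the motif was 21.6% at 3-fold, 8.46% with single-window genes and 5.92% with the wider spacing. Of genes lower without STAT5, the share also lower without STAT3 was 38.3% at percentile 75, 38.1% with both arrays above the filter, 40.4% at 1.5-fold and 8.57% beyond the other arrays. Of genes higher without STAT5, the share also higher without STAT3 was 12.5% with no filter, 26.2% at percentile 75, 28.3% with median centring, 29.5% after loess, 27.4% at 3-fold and 8.70% beyond the other arrays. The share lower without STAT3 was 20.9% with no filter and 37.0% beyond the other arrays. The 1.5-fold and 3-fold limits held for the STAT3 pair too. The share of all genes past them in that pair was not taken, so these overlaps cannot be set against those at 2-fold. The rule beyond the other arrays itself leaves out genes that read alike on the STAT5-deficient and STAT3-deficient arrays. Centring also shifted the STAT3 pair. Its wild-type and deficient arrays had medians of 6.34 and 6.10, so median centring raised every difference of that pair. The cause of the other moves was not tested, beyond the rules above and the fewer or more genes each setting keeps. Median centring left 131 of the named calls in place, with 9 lost and 10 gained, and averaging probe sets left 117, with 16 lost and 6 gained. Without replicates the spread between cultures is unknown.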
